A study of Mus musculus with 30 samples.

Results

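Muscle loses protein through ubiquitin ligases that mark contractile proteins for the proteasome and through autophagy, and 10 regulators of these routes were chosen by name: Fbxo32, Trim63, Fbxo30, Cdkn1a, Foxo1, Foxo3, Mstn, Ctsl, Bnip3 and Gabarapl1. Of these 10 genes, 8 had a row in the table of 16475 genes used here. Mstn (myostatin, a secreted inhibitor of muscle growth) and Bnip3 (a receptor for the autophagy of mitochondria) had none and were not analysed here. RNA of the quadriceps, a thigh muscle of mostly fast fibres, was measured on 30 Affymetrix arrays, 1 male mouse each, of a strain the labels spell C56BL/6J and the design text C57BL/6J. The groups were 10 mice given high fat food over 56 days (HF d56, aged 20 weeks), 10 kept on a low fat diet for the same 56 days (LF d56, aged 20 weeks) and 10 killed at day 0 (LF d0, aged 12 weeks). All mice, also those at day 0, had first eaten the low fat diet for a run-in of 3 weeks from the age of 9 weeks. The study was set up to follow the muscle transcriptome as the high fat diet brings on obesity and insulin resistance.

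In a fed muscle, insulin and IGF1 activate the kinase Akt, which phosphorylates the transcription factors FoxO1 and FoxO3 and keeps them out of the nucleus. When that signal is weak, as in fasting, disuse or diabetes, FoxO factors enter the nucleus and raise transcription of the ligases Fbxo32 and Trim63 and of autophagy genes such as Bnip3 and Gabarapl1. Glucocorticoids act on the same genes, and myostatin weakens Akt through its Smad proteins. The activity of FoxO itself is set mostly by phosphorylation and location, which arrays do not measure.

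RefSeq promoters (build GRCm38.p6, the 250 bases before and the 50 after the gene start) were matched for 9 of the 10 named genes, all but Fbxo32. Trim63 is shown because its transcript belonged to the pair of regulators with the highest correlation between mice. A further reason was that its promoter alone among the 9 genes held GTAAACA, the exact letters searched as the FoxO motif. The window lies at chr4:134314870-134315169 on the plus strand. The second run of capitals is the FoxO motif GTAAACA read on the minus strand, at 194 to 188 bases before the gene start. The first run, at 208 to 196 bases before the start, matches the core of the glucocorticoid receptor motif, GAACANNNTGTTC, and ends 1 base before the FoxO motif.

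Trim63 promoter: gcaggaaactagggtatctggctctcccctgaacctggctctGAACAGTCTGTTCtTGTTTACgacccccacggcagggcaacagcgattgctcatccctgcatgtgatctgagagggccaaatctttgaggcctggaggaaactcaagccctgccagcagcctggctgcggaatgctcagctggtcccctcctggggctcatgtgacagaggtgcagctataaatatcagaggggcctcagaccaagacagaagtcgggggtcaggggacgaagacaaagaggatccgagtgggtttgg

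Among all 32544 promoters of the table, 3.66% held the FoxO motif on either strand. The glucocorticoid core was held by 18 promoters (0.0553%), and it was searched only after the Trim63 sequence had been read, because the longer motif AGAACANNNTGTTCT (3 promoters in all) missed there. The E-box CANNTG, to which myogenic factors bind, occurred 3 times in the Trim63 window, without overlap with the other motifs, and was held by 72.3% of all promoters. A match to letters is a description of the sequence and does not show that a factor binds.

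Values are linear intensities that the authors made with GCRMA, a background-corrected summary of each gene's probes, and differences between groups are on the log2 scale. An intensity of 20 was taken as the edge of what can be read above background. Fbxo32, Trim63, Fbxo30, Foxo1, Ctsl and Gabarapl1 were above 20 on all 30 arrays. Cdkn1a and Foxo3 were at or below 20 on all 30, so their differences are between values near background. Intensities of different genes come from different probes and were not set against one another.

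Across the whole table, each array had 6334 to 6563 entries above 20, and any pair of arrays correlated at 0.986 to 0.996 over the genes (a description, since genes of 1 array are not replicates). The tissue label fits its markers, with all 9 fast fibre genes above 20. Their summed intensity was 142149 to 157323 in HF d56, 144451 to 156947 in LF d56 and 143251 to 153315 in LF d0. The 8 measured slow fibre genes varied far more between mice. Their sum was 272.5 to 5637 in HF d56, 367.8 to 7982.5 in LF d56 and 387.6 to 5866 in LF d0. Its medians were 3950, 4020 and 1566, and 0 of these 8 genes passed limma's test in any comparison. A feature of the arrays cut across the groups. The 5′ minus 3′ signal of spiked-in control RNAs had a gap that put 9 arrays, 3 of each group, in a smaller labelling set and 21 arrays, 7 of each group, in a larger one. The name labelling set stands here for the sides of this gap and is not taken from the sample labels. Of all entries 23.1% differed between these sets. The neutrophil gene S100a8 was above an intensity of 100 on 17 arrays (6 HF d56, 4 LF d56 and 7 LF d0). Values within the sets and without those 17 arrays are given beside the calls and some of the larger differences. Sign changes of uncalled differences are listed in the closing section.

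Fbxo32, also called atrogin-1 or MAFbx, is the substrate-binding part of a Skp1-cullin ubiquitin ligase and the classical atrophy marker. Its intensity ran from 1519 over a median of 1983 to 2912 in HF d56 mice. In LF d56 mice it ran from 1613 over 2087 to 2599, and in LF d0 mice from 1267 over 1882 to 2566. The groups overlapped almost entirely, and both the highest mouse (HF d56 replicate 8) and the second lowest (HF d56 replicate 1) were fed the high fat diet. The difference of HF d56 from LF d56 was -0.07 on the log2 scale, and its 95% interval ran from -0.29 to 0.16, which is 0.817-fold to 1.12-fold. Within the larger and the smaller labelling set the difference was -0.12 and 0.07, and without the 17 arrays high in S100a8 it was 0.05.

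Trim63, or MuRF1, is the RING ligase of the sarcomere, which marks myosin heavy chain and other thick filament proteins. Intensities were 3293, 3863 and 4234 in HF d56 mice (lowest, median and highest), 3497, 3769 and 4082 in LF d56 mice, and 3466, 3784 and 4424 in LF d0 mice. The 3 groups covered nearly the same range. HF d56 differed from LF d56 by 0.02 (95% interval -0.08 to 0.12, or 0.943-fold to 1.09-fold), the narrowest interval of the 8 genes. Within the larger and smaller sets the differences were 0.01 and 0.05.

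Fbxo30, or MUSA1, is a ubiquitin ligase subunit that BMP signalling keeps low and that rises in denervated mouse muscle. It read 56.3, 68.2 and 104.7 in HF d56 mice (lowest, median and highest), 57.5, 81.3 and 101.5 in LF d56 mice, and 46.0, 72.1 and 90.4 in LF d0 mice. Its groups overlapped over most of their range, although 8 of 10 HF d56 mice lay below the LF d56 mean. The difference of HF d56 from LF d56 was -0.14 (95% interval -0.37 to 0.09), with -0.12 and -0.18 within the larger and smaller sets.

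Foxo1 and Foxo3 encode the factors that switch the programme on. Foxo1 read 95.2, 107.3 and 138.2 in HF d56 mice (lowest, median and highest), 99.0, 107.2 and 121.3 in LF d56 mice, and 84.1, 109.8 and 124.3 in LF d0 mice. HF d56 and LF d56 had nearly equal medians, and their difference was 0.02 (95% interval -0.12 to 0.15). Foxo3 stayed between 3.0 and 5.0 on every array, so no difference in its transcript could be read at this signal.

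Ctsl, the lysosomal protease cathepsin L, is among the earliest known atrophy genes. Its intensity was 1521, 1651 and 1919 in HF d56 mice (lowest, median and highest), 1449, 1610 and 1998 in LF d56 mice, and 1302, 1760 and 1904 in LF d0 mice. Again the groups overlapped, and HF d56 differed from LF d56 by 0.04 (95% interval -0.10 to 0.17). Gabarapl1, an LC3-like protein that is attached to the growing autophagosome membrane, read 398.2, 497.9 and 614.5 in HF d56 mice, 430.4, 502.1 and 536.7 in LF d56 mice, and 349.1, 463.8 and 559.6 in LF d0 mice. HF d56 differed from LF d56 by 0.04 (95% interval -0.12 to 0.21), and by 0.00143 and 0.14 within the larger and smaller sets. Without the 17 arrays high in S100a8 the Gabarapl1 difference was -0.12.

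Cdkn1a, the cyclin-dependent kinase inhibitor p21, arrests cycling cells and rises in immobilised and denervated mouse muscle. It read 6.8, 10.6 and 12.2 in HF d56 mice (lowest, median and highest), 7.2, 9.0 and 13.1 in LF d56 mice, and 6.6, 7.7 and 9.7 in LF d0 mice. All of these values are near background, and the 3 groups overlapped, with 9 of 10 HF d56 mice above the LF d0 mean.

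**Figure D1:**
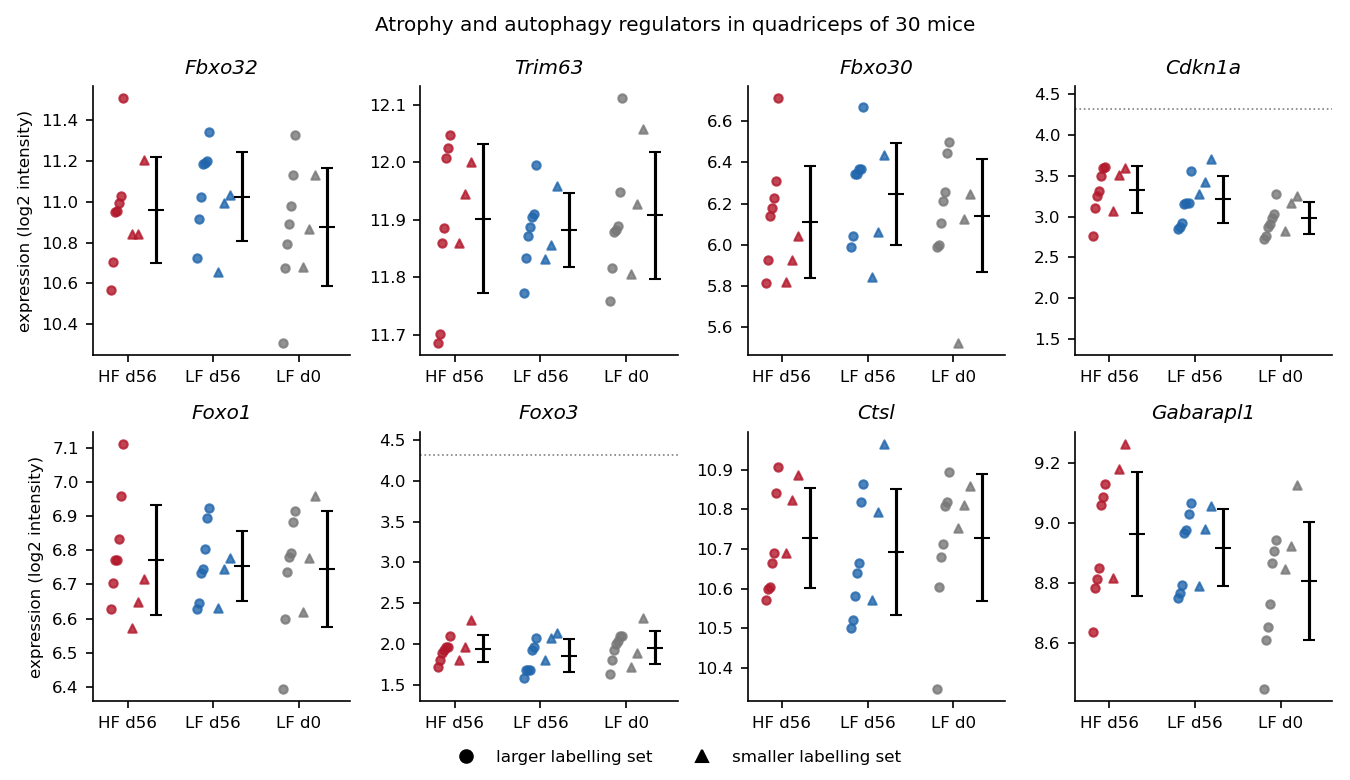
Expression of the 8 measured regulators (y axis, log2 intensity) in each mouse of the HF d56, LF d56 and LF d0 groups (x axis). Circles are arrays of the larger labelling set and triangles those of the smaller one, bars give mean and SD (n = 10), and the dotted line in the Cdkn1a and Foxo3 panels marks an intensity of 20, which no array exceeded. In every panel the 3 groups overlap.

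In the comparison of HF d56 with LF d56, which sets the diets side by side at equal age, 0 of the 8 regulators passed limma's test (adjusted p = 0.9975 for each). The background was as sparse: 4 of 16475 entries passed, which is 0.0243%, and 841 had an unadjusted p below 0.05. None of the 8 had an unadjusted p below 0.05 either, the smallest being 0.235 for Fbxo30. The 95% intervals of the 6 regulators above background all lay between 0.774-fold and 1.15-fold, and those of Trim63, Foxo1 and Ctsl between 0.922-fold and 1.13-fold. On the log2 scale each of these intervals held 0, and each gives the range of mean differences that the data of 10 mice a group allow.

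LF d56 against LF d0 compares mice 8 weeks apart in age on 1 diet, so age, time on diet and the day of killing cannot be told apart. Here too 0 of the 8 regulators passed, where 140 of 16475 entries did (0.85%, 37 higher and 103 lower). Fbxo32 differed by 0.15 (95% interval -0.08 to 0.37, adjusted p = 0.705 in limma), but by -0.07 without the 17 arrays high in S100a8. The Fbxo32 difference was 0.21 in the larger labelling set and 0.0021 in the smaller. Gabarapl1 differed by 0.11 (95% interval -0.05 to 0.28, adjusted p = 0.685). Cdkn1a differed by 0.23 (95% interval 0.0017 to 0.46, unadjusted p = 0.0484, adjusted p = 0.490), with 7 of 10 LF d56 mice above the LF d0 mean. The Cdkn1a difference was 0.16 in the larger and 0.39 in the smaller set (adjusted p = 0.784 and 0.558 in limma). Without the 17 arrays high in S100a8 it was 0.54 (adjusted p = 0.312). Trim63, Ctsl and Foxo1 differed by -0.03, -0.04 and 0.01.

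HF d56 against LF d0 adds the diet to the time, and shares its arrays with the other 2 comparisons, so the 3 are not independent. Again 0 of the 8 passed, where 262 of 16475 entries did (1.59%, 129 higher and 133 lower). Cdkn1a had the largest difference of the 8, 0.35 ± 0.11 (log2, SE, 95% interval 0.12 to 0.58, unadjusted p = 0.00381), and its adjusted p in limma was 0.132. It passed at an adjusted p of 0.0372 once HF d56 replicate 9, the lowest mouse of its group at 6.8, was left out. Within the larger and smaller labelling sets the Cdkn1a difference was 0.37 and 0.31, and without the 17 arrays high in S100a8 it was 0.47, with adjusted p of 0.244, 0.699 and 0.646. The next gene was Gabarapl1, with a difference of 0.16 (95% interval -0.01 to 0.32, unadjusted p = 0.0586, adjusted p = 0.478) and 8 of 10 HF d56 mice above the LF d0 mean. Without the 17 arrays high in S100a8 its difference was 0.04, and the part of neutrophils in it was not tested. The summed intensity of the 11 measured neutrophil genes had medians of 1295 in HF d56, 59.4 in LF d56 and 2030 in LF d0. Adipocyte genes differed in the same comparison, with 4 of 9 higher in HF d56 than in LF d0 in limma and medians of the summed intensity of 12769 in HF d56, 10805 in LF d56 and 10178 in LF d0, and their part in the Cdkn1a and Gabarapl1 values was not tested either.

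**Figure D2:**
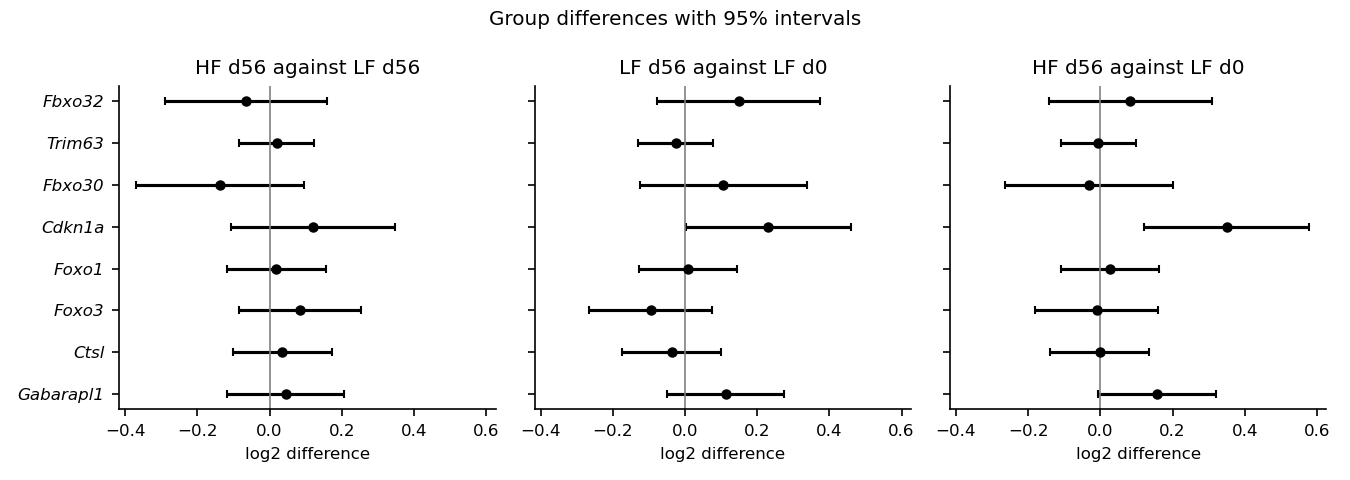
Differences of the 8 regulators (rows) on the log2 scale (x axis) in HF d56 against LF d56, LF d56 against LF d0 and HF d56 against LF d0, with 95% intervals from limma. Intervals cross 0 for every gene and comparison except Cdkn1a, whose intervals against LF d0 lie above 0 and whose adjusted p was 0.490 for LF d56 and 0.132 for HF d56.

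The regulators varied between mice of a group to different degrees. After group means were removed, Fbxo32 had an SD of 0.257 on the log2 scale, and its highest value over the 30 mice was 2.30 times its lowest. Trim63, which is controlled by the same factors, had an SD of 0.105 and a highest value 1.34 times its lowest. The median SD of the 6844 entries above 20 on at least 5 arrays was 0.190. Of these entries 74.3% varied less than Fbxo32 and 76.2% less than Fbxo30 (SD 0.265), but 11% less than Trim63. Foxo1 (SD 0.147), Ctsl (0.149) and Gabarapl1 (0.180) lay below the median.

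Whether the regulators moved together from mouse to mouse was asked over 28 pairs of the 8 genes, after the mean of each group within each labelling set was subtracted. Fbxo32 and Trim63 had the highest correlation of all, with Pearson r = 0.544 over 30 mice (permutation p = 0.00755, adjusted p = 0.106 over the 28 pairs). Spearman's rho was 0.552 (permutation p = 0.00413, adjusted p = 0.0774). The correlation did not pass after adjustment. It was 0.541 within the larger and 0.560 within the smaller labelling set, and 0.579 in HF d56, 0.622 in LF d56 and 0.492 in LF d0. Without the mice of highest and lowest Fbxo32, HF d56 replicate 8 and LF d0 replicate 2, it was 0.454 (permutation p = 0.0275). Without the 17 arrays high in S100a8 it was 0.247 (permutation, adjusted p = 0.913). In HF d56 replicate 8 an Fbxo32 intensity of 2912 came with a Trim63 intensity of 4234, the highest of that group for both, whereas LF d0 replicate 4, the highest of all for Trim63 at 4424, read 2240 for Fbxo32.

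The other pair of similar size ran the opposite way. Cdkn1a and Ctsl had r = -0.513 over 30 mice (permutation p = 0.00562, adjusted p = 0.106) and rho = -0.530 (permutation p = 0.00553, adjusted p = 0.0774). It was -0.503 and -0.554 within the larger and smaller sets, -0.534 in HF d56, -0.518 in LF d56 and -0.552 in LF d0, and -0.546 (permutation p = 0.00488) without the 2 mice farthest in Cdkn1a. With only group means removed and the labelling sets left in, r was -0.290 (permutation, adjusted p = 0.718), and Cdkn1a is read near background. Without the 17 arrays high in S100a8, r was -0.720 (permutation, adjusted p = 0.251). Of all 28 pairs 16 were above 0 and 12 below, and 0 passed the adjustment (2 had an unadjusted permutation p below 0.05). Foxo1, whose protein acts on both ligase genes, had r = -0.101 with Fbxo32 (permutation p = 0.657, adjusted p = 0.780) and -0.124 with Trim63 (permutation p = 0.593, adjusted p = 0.780), with rho of -0.032 (permutation p = 0.880) and -0.155 (permutation p = 0.469). The sign differed between the sets. With Fbxo32, r was -0.260 in the larger and 0.734 in the smaller set (permutation p = 0.311 and 0.0588). With Trim63 it was -0.253 and 0.528 (permutation p = 0.328 and 0.376). Without the 2 mice farthest in the ligase gene, r was 0.237 with Fbxo32 and -0.107 with Trim63 (permutation p = 0.288 and 0.649).

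**Figure D3:**
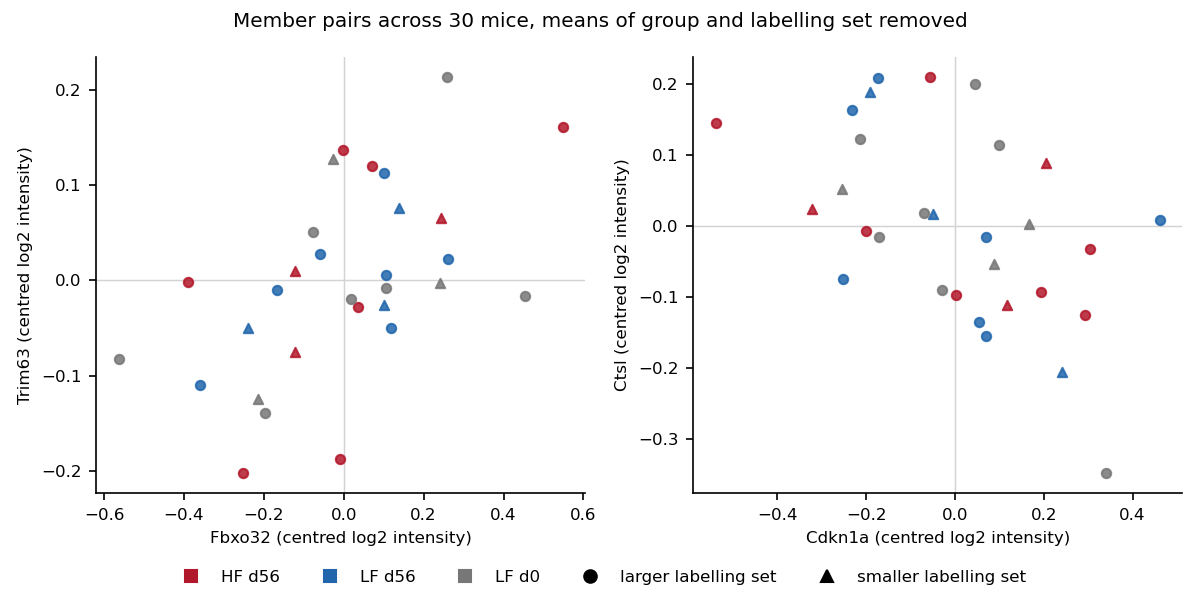
Trim63 against Fbxo32 (left) and Ctsl against Cdkn1a (right) in 30 mice, as log2 intensity minus the mean of the mouse's group and labelling set. Colours give the groups HF d56, LF d56 and LF d0, and circles and triangles the larger and smaller labelling set. The left cloud slopes upward (r = 0.544) and the right one downward (r = -0.513), and neither r passed the adjustment over 28 pairs.

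Setting each regulator beside the 6595 other named genes above background, with the same centring, places these values. These ranks describe 30 mice, compared over genes read on the same arrays, and carry no test. Trim63 was the 23rd most alike gene to Fbxo32, and Fbxo32 the 10th most alike to Trim63. The gene most like Fbxo32 was Slc16a9, a carrier of the monocarboxylate transporter family, with r = 0.769 (0.80 and 0.712 within the larger and smaller sets). Slc16a9 read 22.6, 31.4 and 41.3 in HF d56 (lowest, median and highest), 25.7, 31.5 and 41.9 in LF d56, and 20.1, 30.8 and 36.9 in LF d0. Sesn1 (sestrin 1) was also among the most alike. It is a target of FoxO and p53 that restrains the growth kinase complex mTORC1, and it had r = 0.629 (0.698 and 0.591 within the sets). Sesn1 read 171.5, 231.1 and 306.1 in HF d56 (lowest, median and highest), 160.2, 214.7 and 254.2 in LF d56, and 141.0, 250 and 319.3 in LF d0, again with overlap.

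Sesn1 belonged to a list of FoxO targets other than the regulators themselves. Of its 16 genes above background, 11 had r above 0 with Fbxo32, with a median r of 0.172, where the median over all 6595 genes was -0.006 and 49.1% were above 0. The count was also 11 of 16 for Trim63 (median r 0.088), Fbxo30 (0.238) and Gabarapl1 (0.175), and 9 for Foxo1 and 8 for Ctsl. For Fbxo32, other lists leaned likewise, with 10 of 13 further ubiquitin ligases and partners (median r 0.186) and 16 of 21 autophagy genes (0.125) above 0. Of the lysosomal list 6 of 16 were above 0 (-0.112). Pdk4, the kinase that spares glucose by shutting off pyruvate dehydrogenase, had r = 0.473 with Fbxo32 and 0.408 with Trim63. Sesn1 was the 21st most alike gene to Trim63 (r = 0.469). Other FoxO targets ran the opposite way, with 5 of the 16 below 0 for Fbxo32 and 5 for Trim63. The lowest were Prodh (-0.495) and Ddit4 (-0.482) with Fbxo32, and Sod2 (-0.325) and Prodh (-0.306) with Trim63. Genes induced by glucocorticoids lay mostly below 0 for Fbxo32: 4 of 15 had r above 0, with a median r of -0.265. One of them, Zbtb16, a transcription factor strongly induced by glucocorticoids, was nevertheless the 18th most alike gene to Fbxo32 (r = 0.554). Of the insulin and Akt list, 12 of 16 genes had r above 0 with Fbxo32, with a median of 0.176. The highest was Tsc1, a brake on mTORC1 (r = 0.556), and the lowest Sgk1 (r = -0.506). Trim63 itself was most like Medag (r = 0.610), Arl1, a small GTPase of the Golgi (0.601), and the zinc finger factor Hivep2 (0.587).

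The 3 genes most like Gabarapl1 were Acadl, the mitochondrial long-chain acyl-CoA dehydrogenase (r = 0.818), Akap1, which anchors protein kinase A at the outer mitochondrial membrane (0.790), and Acadvl, the very long-chain acyl-CoA dehydrogenase (0.784). Within the larger and smaller labelling sets these were 0.813 and 0.881 for Acadl, 0.812 and 0.743 for Akap1, and 0.752 and 0.881 for Acadvl. In the autophagy list, by contrast, 9 of 21 genes had r above 0 with Gabarapl1, with a median of -0.044 where all genes had -0.040. The highest of the autophagy list was Ulk1, the kinase that starts autophagy (r = 0.522), and the lowest was Becn1 (r = -0.656). Of the lysosomal list the highest was Ctsb, cathepsin B (0.584), and the lowest Ctsa (-0.256).

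The remaining regulators had other neighbours. Fbxo30 was most like Tmem64 (r = 0.801), Oxr1, an oxidation resistance protein (0.799), and Commd8 (0.767), and Pdk4 was the FoxO target most like it (0.687). Ctsl was most like Eif4g3, a translation initiation factor (0.815), Smoc2, a matrix protein (0.804), and Sucla2, a subunit of succinyl-CoA ligase (0.798). Foxo1 was most like Ramp2, a receptor partner of the vessel peptide adrenomedullin (0.703). Its next neighbours, Vwa5a (0.651) and Prep (0.595), had r of -0.176 and -0.343 within the smaller set, so they were alike to Foxo1 in the larger set alone.

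Fbxo30 and Ctsl also varied with a property of the arrays, and its part in the likeness to other genes was not tested. The 8 regulators were set against the 5′ minus 3′ spike-in signal of each array, which ran from -2.16 to -1.02 on the log2 scale, with the same centring and over 8 relations chosen after the data had been seen. Fbxo30 was higher where that signal was higher, with r = 0.601 over 30 arrays (permutation p = 0.00081, adjusted p = 0.00648) and rho = 0.632 (permutation p = 0.00057). Its r was 0.635 within each of the sets and 0.654 without the 2 arrays farthest in the spike-in signal (permutation p = 0.0008). Ctsl had r = 0.537 (permutation p = 0.0081, adjusted p = 0.0324) and rho = 0.467 (permutation p = 0.0185). That relation was 0.642 in the larger set and -0.121 in the smaller. Without LF d0 replicates 2 and 7 it was 0.343 (permutation p = 0.119), so it depends in part on those 2 arrays. Fbxo32 had r = 0.047 (permutation p = 0.832, rho 0.138 with permutation p = 0.504) and Trim63 -0.060 (permutation p = 0.778, rho -0.044 with permutation p = 0.834), both with an adjusted p of 0.832. For the other 4 the adjusted p was 0.280 or above. None of the 8 differed between the labelling sets themselves in limma, where 23.1% of entries did, the smallest adjusted p being 0.0736 for Fbxo30 (-0.23, smaller minus larger set).

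**Figure D4:**
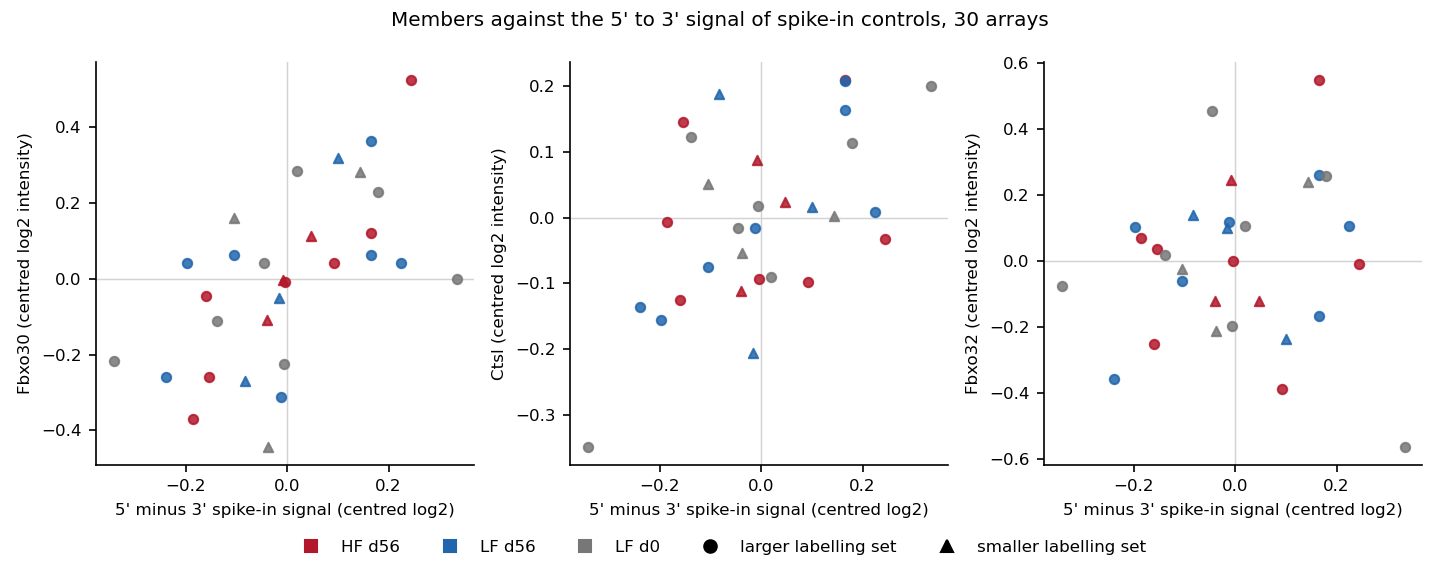
Fbxo30, Ctsl and Fbxo32 (y axes, log2 intensity) against the 5′ minus 3′ signal of spike-in controls (x axis, log2) on 30 arrays, each minus the mean of its group and labelling set. Colours give the groups HF d56, LF d56 and LF d0, circles and triangles the sets. Fbxo30 climbs with the signal (r = 0.601), Ctsl climbs less without the 2 arrays farthest out (r = 0.537 with and 0.343 without them), and Fbxo32 shows no slope (r = 0.047).

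Around the regulators, 10 lists of their pathways held 215 other genes, of which 191 were measured. In HF d56 against LF d56, 0 of the 191 passed in limma, and 6 had an unadjusted p below 0.05, where 841 of all 16475 entries did. The median difference was 0.006 for the 191 and 0.0029 for all entries. In LF d56 against LF d0, 3 of 191 passed (1.57%), 1 higher and 2 lower. In HF d56 against LF d0, 4 of 191 passed (2.09%), 2 higher and 2 lower. These shares stand beside 0.85% and 1.59% of all entries, and the median differences were 0.03 and 0.027.

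Of 14 further ubiquitin ligases and their partners, Fbxo21, a ligase subunit that rises in denervated mouse muscle, was the only one to pass. It read 16.9, 22.8 and 26.4 in HF d56 (lowest, median and highest), 15.3, 19.5 and 23.4 in LF d56, and 15.8, 17.8 and 18.7 in LF d0. The HF d56 mice reached well above LF d0 but did not clear it, and all values lie close to an intensity of 20. Fbxo21 rose by 0.32 ± 0.08 in HF d56 against LF d0 (log2, SE, adjusted p = 0.0177 in limma) and passed in 20 of 20 fits that each dropped 1 array. Within the larger and smaller sets the difference was 0.26 and 0.47, with adjusted p of 0.266 and 0.164. It was 0.25 without the 17 arrays high in S100a8 (adjusted p = 0.749). HF d56 differed from LF d56 by 0.21 ± 0.08 (adjusted p = 0.733). In LF d56 against LF d0, 13 of the 14 were above 0 with a median of 0.06, where 50.4% of all entries were above 0. Genes read on the same arrays are not independent, so this count carries no test. None of the 14 passed, the smallest p being that of the proteasome subunit Psmd11 (0.12, adjusted p = 0.351 in limma).

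The autophagy machinery (24 measured) and the mitophagy list (9 measured) had 0 genes past limma's test in each of the 3 comparisons, with medians between -0.004 and 0.03. Counts at an unadjusted p below 0.05 follow for HF d56 against LF d56, LF d56 against LF d0 and HF d56 against LF d0. They were 0, 0 and 2 autophagy genes, 0, 0 and 1 mitophagy genes, and 841, 1668 and 1815 of all 16475 entries. Rb1cc1, the scaffold of the Ulk1 complex, had the smallest p of its list in HF d56 against LF d56 (-0.15, adjusted p = 0.9975). Map1lc3b, the LC3 protein, differed by 0.07 ± 0.04 (adjusted p = 0.9975), Ulk1 by 0.15 ± 0.12 (adjusted p = 0.9975) and Sqstm1, the p62 cargo receptor, by -0.02 ± 0.08 (adjusted p = 0.9975). Bnip3l, the paralogue of Bnip3, differed by 0.06 ± 0.07 (adjusted p = 0.9975), and Pink1, the kinase that flags damaged mitochondria, by 0.06 ± 0.06 (adjusted p = 0.9975). In LF d56 against LF d0 the smallest p of the autophagy list was that of Atg3, the enzyme that attaches LC3 to lipid (0.06, adjusted p = 0.624, at most 20 on all arrays), and that of the mitophagy list was Pink1 (0.10, adjusted p = 0.590).

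Among 20 genes of cathepsins and the lysosome, Ctsk (cathepsin K, a collagen-degrading protease of osteoclasts and fibroblasts) was the only one to pass. It read 14.2, 21.0 and 35.3 in HF d56 (lowest, median and highest), 16.3, 20.4 and 29.7 in LF d56, and 20.7, 32.8 and 59.0 in LF d0. Both groups of 56 days lay mostly below LF d0, with some overlap. Ctsk fell by 0.67 on the log2 scale in LF d56 against LF d0 (SE 0.17, adjusted p = 0.0447) and by 0.64 in HF d56 against LF d0 (SE 0.17, adjusted p = 0.0407). It passed in 6 and 8 of the 20 fits that each dropped 1 array, where the adjusted p reached 0.0994 and 0.0952. In LF d56 against LF d0 it differed by -0.63 in the larger and -0.75 in the smaller labelling set (adjusted p = 0.322 and 0.2725). In HF d56 against LF d0 these were -0.62 and -0.68 (adjusted p = 0.251 and 0.422). With the replicate number as a block the adjusted p was 0.0891 and 0.0747, and without the 17 arrays high in S100a8 the difference was -0.56 and -0.58 (adjusted p = 0.316 and 0.592). The smallest p of this list in HF d56 against LF d56 was that of Hexa, a lysosomal hexosaminidase subunit (0.08, adjusted p = 0.9975).

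Fibroblast and tendon genes moved with Ctsk: 7 of 12 were lower in LF d56 and the same number in HF d56 against LF d0, with medians of -0.468 and -0.435. Their summed intensity was 10237 to 15243 in HF d56, 11578 to 13955 in LF d56 and 13025 to 21343 in LF d0. In bulk muscle, fewer cells of a type and less RNA per cell cannot be told apart, and the part of these cells in the Ctsk result was not tested. Igf1, the growth factor at the head of the Akt route, which fibroblasts and macrophages also make, read 21.2, 25.7 and 35.2 in HF d56 (lowest, median and highest), 18.3, 25.6 and 40.6 in LF d56, and 29.1, 36.4 and 64.4 in LF d0. It differed by -0.56 ± 0.15 in LF d56 against LF d0 (adjusted p = 0.0894) and by -0.57 ± 0.15 in HF d56 against LF d0 (adjusted p = 0.0504), and did not pass in limma. None of the 22 measured genes of the insulin, IGF1 and Akt list passed in any comparison. The comparisons HF d56 against LF d56, LF d56 against LF d0 and HF d56 against LF d0 follow in this order. An unadjusted p below 0.05 in limma was held by 1, 6 and 1 of the 22, and by 841, 1668 and 1815 of all 16475 entries. Of the 22 genes 5, 17 and 12 were above 0 and 17, 5 and 10 below, with medians of -0.03, 0.045 and 0.017. Over all entries 51.5%, 50.4% and 51.1% were above 0. The first 2 comparisons share the LF d56 arrays. In HF d56 against LF d56 the smallest p of this list was that of Irs2, an adaptor of the insulin receptor. It differed by -0.30 (unadjusted p = 0.0176, adjusted p = 0.859 in limma) and was at or below 20 on all arrays.

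Of the 17 genes of p53 and cell cycle arrest, the list around Cdkn1a, Trp53inp2 (a protein that brings LC3 out of the nucleus to autophagosomes in muscle) was the only one to pass. It read 2861, 3291 and 3537 in HF d56 (lowest, median and highest), 2956, 3139 and 3462 in LF d56, and 3319, 3630 and 4077 in LF d0. Against LF d0 it fell by 0.20 on the log2 scale in LF d56 (SE 0.05, adjusted p = 0.0334) and by 0.17 in HF d56 (SE 0.05, adjusted p = 0.0495). Both calls passed in 7 of 20 fits that each dropped 1 array, and their adjusted p was 0.107 and 0.131 with the replicate number as a block. Without the 17 arrays high in S100a8 the differences were -0.15 and -0.16 (adjusted p = 0.472 and 0.719). In LF d56 against LF d0 it differed by -0.19 in the larger and -0.21 in the smaller labelling set (adjusted p = 0.202 and 0.604). In HF d56 against LF d0 these were -0.14 and -0.26 (adjusted p = 0.352 and 0.566). The list's smallest p in HF d56 against LF d56 was that of the cyclin Ccnd2 (0.16, adjusted p = 0.9915).

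Of the other lists, the 17 FoxO targets, the 18 glucocorticoid-induced genes and the 28 genes of the myostatin and activin route had 0 past limma's test in all 3 comparisons. In HF d56 against LF d56, 1, 1 and 2 of these list genes had an unadjusted p below 0.05, beside 841 of all 16475 entries. In HF d56 against LF d56 the smallest p of each belonged to Cat, the peroxisomal catalase (0.23, adjusted p = 0.705), to Sult1a1 (0.30, adjusted p = 0.941) and to Tgfb1 (0.41, adjusted p = 0.733, with 6 of 30 arrays above 20). In LF d56 against LF d0 it belonged to Prodh, which starts proline breakdown (0.28, adjusted p = 0.355), to Per1, a clock gene that glucocorticoids induce (0.81, adjusted p = 0.351) and to Fstl1, a secreted follistatin-like protein (-0.27, adjusted p = 0.194). Of 22 genes of denervation and fibre stress, Sln (sarcolipin, which uncouples the calcium pump) was the only one to pass. It was near background, at 6.0, 11.0 and 47.2 in HF d56 (lowest, median and highest), 7.9, 16.0 and 33.7 in LF d56, and 4.3, 5.4 and 8.8 in LF d0. Sln rose by 1.54 ± 0.29 in LF d56 against LF d0 (log2, SE, adjusted p = 0.00398 in limma) and passed in 20 of 20 fits that each dropped 1 array. It rose by 1.16 ± 0.29 in HF d56 against LF d0 (adjusted p = 0.0319), where it passed in 12 of 20 such fits. There the adjusted p was 0.0588 with the replicate number as a block. Over the 12 alternative settings the rise in LF d56 ran from 0.61 to 1.86 and passed in 10. The rise in HF d56 ran from 0.31 to 1.52 and passed in 8, but not with a pseudocount of 16. Within the larger and smaller sets it differed by 1.55 and 1.51 in LF d56 and by 1.52 and 0.31 in HF d56, both against LF d0. These differences were 1.86 (adjusted p = 0.137) and 1.15 (adjusted p = 0.604) without the 17 arrays high in S100a8. The gene of smallest p in this list in HF d56 against LF d56 was Csrp3, a muscle LIM protein (0.70, adjusted p = 0.9975).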

How the data were processed

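Quadriceps RNA of 30 mice was hybridised to Affymetrix arrays. The deposited table gives linear intensity values that the authors made with GCRMA, per the submitters' processing notes; version, array build and genome build are not given in the sources used here. Rows are named by gene number, and symbols came from the platform annotation (15752 of 16475 numbers matched RefSeq, 0 symbols changed). After 64 control entries were left out, 16475 entries were tested on log2 intensity (pseudocount 0) with limma 3.58.1 in R 4.3.3, as lmFit and eBayes with group as the factor over all 30 arrays (27 residual and 3.97 prior degrees of freedom), two-sided, with Benjamini-Hochberg adjustment over all entries and a threshold of 0.05. The number of arrays limits the precision. Intervals are 95% intervals of that fit. The test was tested on simulated data. Replicates are separate mice, and 0 arrays were identical. Same-numbered mice did not deviate together (8 of 30 pairs correlated over 0.1), so they were not paired.

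Labelling sets are the sides of the widest gap (between -1.49 and -1.27) in the 5′ minus 3′ signal of 4 pairs of dap and thr spike-in probe sets. Correlations used 100000 two-sided permutations of mice within group and set (Python 3.11.15, numpy 2.4.6, scipy 1.17.1; figures with matplotlib 3.10.9). The plan was for pairs of 10 genes, and 8 had a row. The genes, the lists and the motifs were chosen with earlier results of these data known. Named were all regulators, list genes that passed, the list gene of smallest p where none did (in HF d56 against LF d56 and LF d56 against LF d0), and the 3 genes most like each regulator above background, of which 1 is not reported here. Others (the list genes of highest or lowest r, Map1lc3b, Ulk1, Sqstm1, Bnip3l, Pdk4 and Igf1) were chosen after their values were seen. Alternatives were the groups in the fit, the prior, quantile and median scaling, a filter, a pseudocount of 16, blocks, sets, S100a8, slow fibres and single arrays.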

Additional observations from a re-analysis of the deposited data

Results flagged for a closer look

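In 24 groups of 10 mice (8 regulators in 3 groups), 2 mice stood apart from the rest of their group by Dixon's test (gap over range above 0.466), and chance flags about 1 in 20 groups. Fbxo30 read 46.0 in LF d0 replicate 9, where the nearest mouse read 63.6, a gap of 0.48 of the range on the log2 scale. Without that mouse the direction of HF d56 against LF d0 stayed below 0. Ctsl read 1302.4 in LF d0 replicate 7, where the nearest mouse read 1556.9, a gap of 0.47 of the range. That array was also one of the 2 farthest in the spike-in signal.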

How the results depend on the processing

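Under 12 alternative settings and 20 single arrays left out per comparison, 844 of 1000 values kept their direction and side of the threshold, 60 changed sign and 96 changed side. The values were those of the 8 regulators, of the calls of Ctsk, Sln, Trp53inp2 and Fbxo21, and of 2 correlations. Apart from Cdkn1a without HF d56 replicate 9, every change of side belonged to these calls. The number of regulators past the threshold was 0 in all settings of the 3 comparisons, and 0 to 1 in HF d56 against LF d0 with 1 array left out (Cdkn1a, without HF d56 replicate 9). No sign change concerned a called difference, and the cause was not tested. In the smaller labelling set (3 arrays a group) the signs turned for Fbxo32 (0.069), Cdkn1a (-0.077) and Foxo1 (-0.072) in HF d56 against LF d56, for Foxo1 (-0.067), Foxo3 (0.028) and Gabarapl1 (-0.022) in LF d56 against LF d0, and for Trim63 (0.0053), Foxo1 (-0.14) and Foxo3 (0.044) in HF d56 against LF d0. Without the arrays high in S100a8 they turned for Fbxo32 (0.048), Cdkn1a (-0.066), Foxo1 (-0.016) and Gabarapl1 (-0.12) in the first comparison, for Fbxo32 (-0.067), Fbxo30 (-0.11) and Ctsl (0.041) in the second, and for Fbxo32 (-0.019), Trim63 (0.0091), Foxo1 (-0.015) and Ctsl (0.070) in the third. In HF d56 against LF d0 they also turned for Trim63 (0.0039) and Ctsl (0.0079) under median centring, for Ctsl (0.0013) in the larger set, and for Foxo3 (2.227e-05) and Ctsl (0.0068) with slow fibre genes as a covariate. With single arrays left out, Foxo1 ran from -0.019 to 0.041 in HF d56 against LF d56, from -0.031 to 0.032 in LF d56 against LF d0 and from -0.013 to 0.050 in HF d56 against LF d0, where Trim63 ran from -0.022 to 0.018, Fbxo30 from -0.10 to 0.0085, Foxo3 from -0.049 to 0.031 and Ctsl from -0.044 to 0.017.

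The counts over all entries moved more. For HF d56 against LF d56, LF d56 against LF d0 and HF d56 against LF d0 they were 4, 140 and 262. They became 0, 47 and 134 in the larger set, 0, 11 and 0 in the smaller set, 0, 13 and 6 without the arrays high in S100a8, and 6, 214 and 384 with the set as a block. HF d56 against LF d56 gave 0 entries in a fit of those 2 groups, 8 with trend and robust priors or with the filter on dim entries, 7 with a pseudocount of 16, 12 with slow fibre genes as a covariate, and 2 to 15 with 1 array left out. With the replicate block the counts were 1, 104 and 209, with 0 regulators in each, and the numbers do not pair the mice. The correlation of Fbxo32 with Trim63 ran from 0.247 to 0.575 over 7 settings and that of Cdkn1a with Ctsl from -0.72 to -0.29, with a smallest adjusted p of 0.0727 for both.

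For Cdkn1a, Foxo3, Sln, Ctsk and Fbxo21, signal near an intensity of 20 limits the size that can be read. Arrays give no read depth. Sets and groups of 3 arrays pass few entries, so a call missing there says little.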
